A study of Mus musculus with 144 samples.

Results

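The cells described here are single cells sorted by flow cytometry from the retinas of Iba1-EGFP mice and labelled as microglia, pooled over all treatment groups. The rule took each cell of the series in which at least 1000 genes had a value of 1 or more in FPKM (fragments per kilobase of gene length, scaled to the cell's assigned reads), and 140 cells met it and 4 did not. Mice of the control group, 10 to 14 weeks old, had received PBS and gave 46 of these cells. Mice aged 14 weeks that had received the ROCK inhibitor ripasudil at 1 mg/kg gave 47 cells, and mice aged 12 weeks given 10 mg/kg gave another 47. Every plate of the 3 plates held 16 sorted cells from each group. The series title places the work after optic nerve injury, but the sample labels do not say which eyes were injured. The EGFP of the strain is driven from the gene of Iba1 (Aif1), which other macrophages also use, so the sort does not by itself separate microglia from them. The labels name no animal, so each group counts as 1 sample, and age and treatment cannot be told apart. Cells of a group were therefore not treated as replicates, and the values below are descriptions of these cells without p-values.

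Microglia are the resident macrophages of the retina and the rest of the central nervous system. They depend on signals through the receptor for colony-stimulating factor 1, patrol tissue with motile processes, and remove debris and synapses by phagocytosis and lysosomal digestion. On damage they are known to lower the genes of their surveying state and to raise chemokines, cytokines and genes of lipid and lysosomal handling.

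The 140 cells had 1006 to 9077 detected genes each, with a median of 2421.5, where detected means FPKM 1 or more. Assigned reads per cell ran from 30204 to 4668736, with a median of 1614850. The Spearman correlation between reads and detected genes over the 140 cells was 0.26. Of 55364 gene rows in the table, 28897 reached FPKM 1 in at least 1 cell, and the median such row did so in 2.86% of cells. RNA was unevenly spread: the 100 most abundant rows of a cell held from 18.8% to 97.7% of its reads, with a median of 41.8%. A stretch of chromosome 1 (1:24611535-24616197, build GRCm38.p6) that carries a copy of mitochondrial DNA took 0.00348% to 33.1% of reads over its 7 gene models, with a median of 2.77%.

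The label of microglia was checked against 5 defining genes. Csf1r, the colony-stimulating factor 1 receptor, was detected in all 140 cells (100%, exact 95% interval 97.4% to 100%), with FPKM of 1.76 at the lowest, 795 at the median and 4172 at the highest. Aif1, which encodes the calcium-binding protein Iba1 and drives the reporter, was detected in 137 cells (97.9%, interval 93.9% to 99.6%) at 0.521, 377 and 6580 in the lowest, median and highest cell. The receptor Cx3cr1, through which neurons signal to microglia, was detected in 134 cells (95.7%, 90.9% to 98.4%), at 0.458, 285 and 3185. These 3 genes were thus found in nearly every sorted cell, although each spanned more than the range from 10 to 1000 FPKM. Tmem119, a membrane protein used to tell microglia from other macrophages, was detected in 124 cells (88.6%, 82.1% to 93.3%), at 0.283, 101 and 2707. P2ry12, the ADP receptor that guides microglial processes, was detected in 109 cells (77.9%, 70.1% to 84.4%), at 0, 21.3 and 2333. The intervals cover counting error only, and reads were amplified with no molecular identifiers named. At the higher mark of FPKM 100, Csf1r was present in 102 cells, Aif1 in 101, Cx3cr1 in 93, Tmem119 in 70 and P2ry12 in 59. The pair most particular to surveying microglia was therefore low or missing in many cells that carried Csf1r. All 5 genes reached FPKM 1 in 103 cells, FPKM 10 in 56 and FPKM 100 in 39.

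At least 3 of the 5 markers were detected in 137 cells (97.9%, 93.9% to 99.6%), at similar shares of 97.8% to 97.9% in the 3 groups. The remaining 3 cells still held high levels of other myeloid genes. One PBS cell had Csf1r at 290 FPKM, Tyrobp at 7327 and Apoe at 8582. One low-dose cell had Csf1r at 2.2 and C1qb at 10629.7, and one high-dose cell had Csf1r at 1781 and Tyrobp at 5906. From a second list of 10 microglial genes (among them Sall1, Siglech, Gpr34, Olfml3, Fcrls, P2ry13, Trem2, Tyrobp and C1qa), every cell held at least 3. Within groups the medians of P2ry12 were 26.2 FPKM (PBS), 115 (low dose) and 4.36 (high dose), those of Tmem119 83.2, 236 and 38.6, and those of Csf1r 607, 879 and 852. The ranges of the groups overlapped widely for all 5 genes, as the plot of single cells shows.

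**Figure D1:**
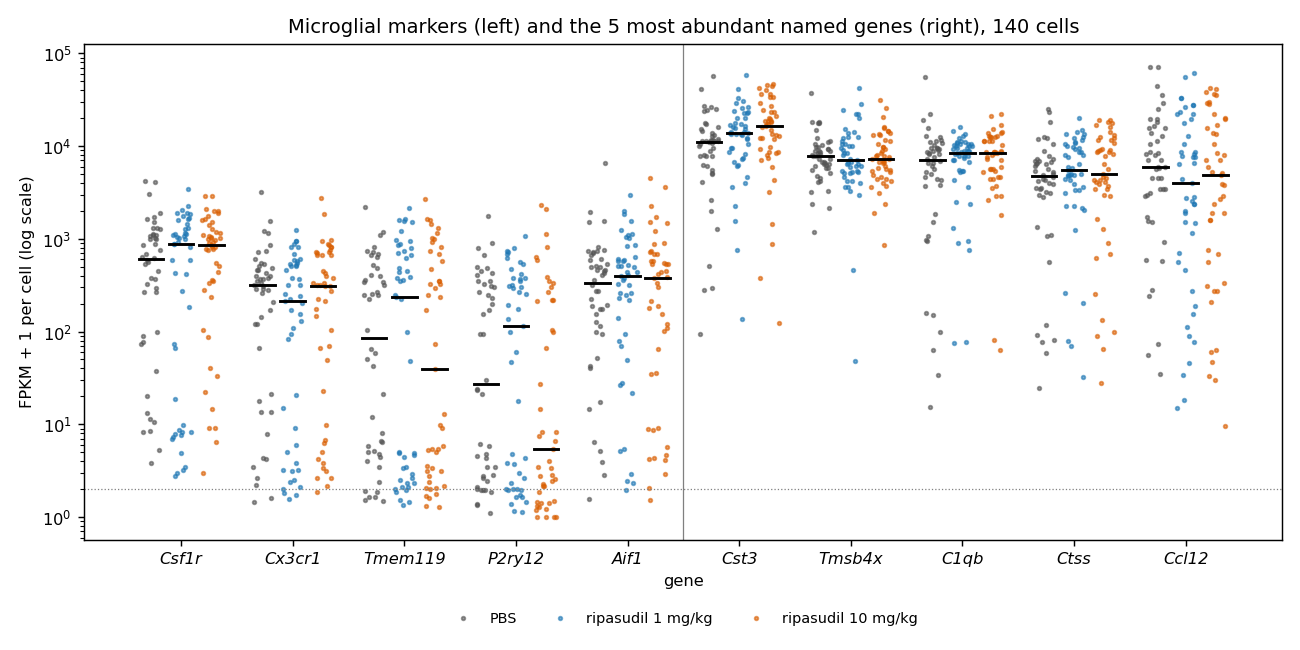
FPKM + 1 on a log axis for the 5 microglial markers and the 5 most abundant named genes in each of the 140 cells, split by group (46 PBS, 47 low-dose and 47 high-dose cells); black bars are medians and the dotted line marks FPKM 1. Cst3 and Tmsb4x form narrow bands high on the axis in all groups, while P2ry12 and Tmem119 are spread from near 0 to above 1000.

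Markers of other cells were present at low frequency. At least 3 of 10 rod photoreceptor genes were detected in 25 cells (17.9%, 11.9% to 25.2%), and Gnat1, the rod transducin, reached FPKM 100 in 9 cells with a highest value of 4346. At least 3 of 8 markers of border macrophages, the macrophages of meninges and vessel walls, were detected in 12 cells (8.57%, 4.51% to 14.5%). Pf4, one of these, was detected in 40 cells and at FPKM 100 in 8. At least 3 of 8 neutrophil genes were detected in 15 cells (10.7%, 6.12% to 17.1%). S100a9, one of these genes, was detected in 36 cells and at FPKM 100 in 5, with a highest value of 63970. It had the highest FPKM of all named genes in 2 cells, and S100a8 in 1. Of the 8 neutrophil genes only Camp and Ltf, of neutrophil granules, were found in no cell. All 25, 12 and 15 of these cells also held at least 3 of the 5 microglial markers. As 137 of the 140 cells met that mark, it cannot tell microglia from border macrophages here. By plate they numbered 11, 10 and 4 (rod), 5, 5 and 2 (border macrophage) and 5, 7 and 3 (neutrophil). At least 3 markers of T or natural killer cells, B cells, mast cells, cones, bipolar, amacrine and horizontal neurons, astrocytes, oligodendrocytes, pigment epithelium and endothelium were found in 0 of 140 cells, which allows a share of cells so detected of up to 2.14% (3 counts of the total). At least 3 markers of monocytes, dendritic cells and Müller glia were detected in 2 cells each, and of ganglion cells, pericytes and erythroid cells in 1 cell each.

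The most abundant named gene was Cst3 (2:148871722-148875692, GRCm38.p6), which encodes cystatin C, a secreted inhibitor of cysteine proteases. Its FPKM was 92.4 in the lowest cell, 12886 at the median and 58916 in the highest, a mean of 13.30 on the log2(FPKM + 1) scale with an SD over cells of 1.72 (n = 140 cells). The median row reaching FPKM 1 in any cell had a mean of 0.11 on that scale. Tmsb4x, thymosin beta 4, which sequesters actin monomers, followed at 47.2, 7312 and 42719 FPKM, and its SD of 1.15 was small for so high a level. Cst3 had the highest FPKM of all named genes in 62 cells, the chemokine Ccl12 in 25 and Tmsb4x in 12. Cst3 was first in the mean of each of the 3 groups and in 8 of the 9 sets of a group and plate.

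Genes of complement, lysosomal proteolysis and immune signalling followed. C1qb, a chain of the C1q complex that starts the classical complement pathway and tags synapses, had 14.4, 8301 and 55994 FPKM in the lowest, median and highest cell. Its partner chains C1qc and C1qa, from the same cluster on chromosome 4, had medians of 2444 and 2478. Together the 3 chains held a median of 1.62% of a cell's reads, and Cst3 alone held 1.63%. Ctss, a cysteine protease that cleaves the invariant chain of MHC class II and on which cystatin C acts, had 23.4, 5010.4 and 25003. The aspartic protease Ctsd, the exopeptidase Ctsz, legumain (Lgmn) and Ctsb had medians of 3725, 2196, 1465 and 760 FPKM. Thus the protease inhibitor and the proteases were abundant in the same cells, and the 15 genes of the cathepsin, legumain and cystatin list held a median of 5.93% of reads, against 4.03% for all cytosolic ribosomal proteins.

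Ccl12, a ligand of the receptor Ccr2 that draws monocytes, differed from its neighbours in rank. Its median of 5184 FPKM was close to that of Ctss, yet it ran from 8.55 to 71993, and its SD of 3.04 on the log2 scale exceeded that of Ctss (2.28) and C1qb (2.01). It was at or above FPKM 100 in 125 cells. Tyrobp and Fcer1g, the membrane adaptors through which Trem2 and Fc receptors signal, had medians of 3798 and 3258. B2m, the light chain of MHC class I, had a median of 3704. The ferritin chains Ftl1 and Fth1, which store iron, had medians of 2015 and 1636, and Fth1 was one of the steadier genes (SD 1.64, FPKM 100 or more in 135 cells). The rest of the 25 included housekeeping genes such as Actb, Eef1a1, Ubb, Rps29 and Rplp1, and the tetraspanin Cd81. Between 20 and 24 of these 25 genes were also among the first 25 in each of the 9 sets of a group and plate, and 21 to 23 in each group, so the same short list led in all of them.

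**Figure D2:**
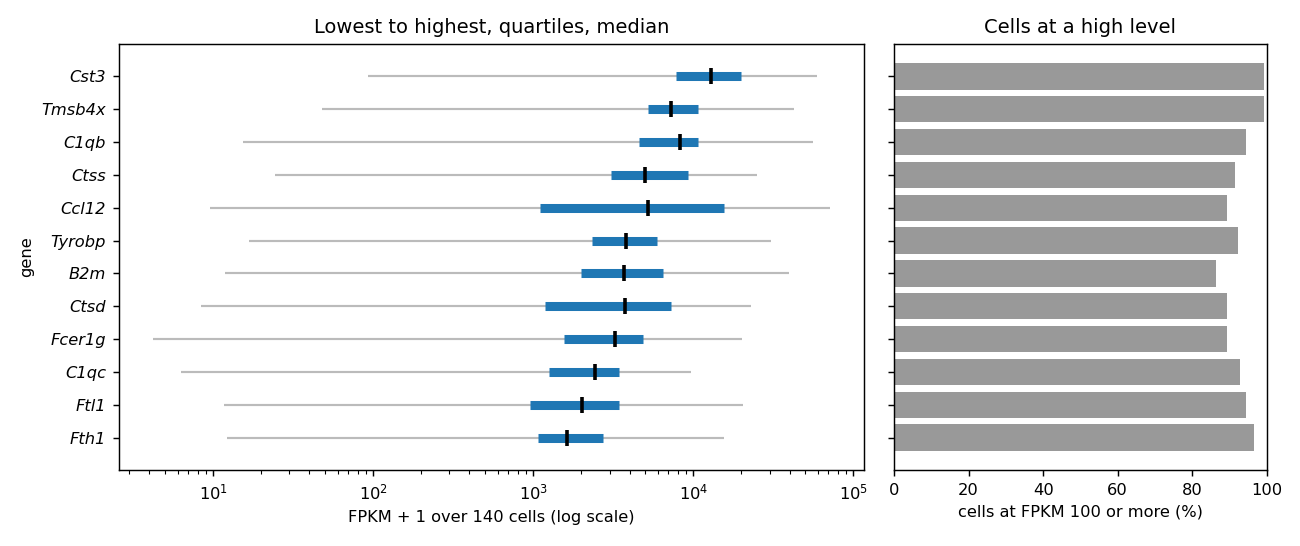
The 12 named genes of highest mean log2(FPKM + 1) over 140 cells: the left panel gives lowest, quartile, median and highest FPKM on a log axis, and the right panel the percent of cells at FPKM 100 or more. Cst3 and Tmsb4x are at or above FPKM 100 in 139 cells each, and Ccl12 has a wide range for its level.

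Genes found in nearly all cells were counted next. At FPKM 1, 151 of 28897 rows (0.523%) were detected in at least 95% of cells, and 8242 (28.5%) in at least 10%. For protein-coding genes these were 97 of 16234 (0.598%) and 5827 (35.9%). Of the 97, 94 had a gene name, and 34 of those were found in all 140 cells. The other rows were mostly processed pseudogenes (22) and microRNA models (14). The 94 genes were not detected at trace levels alone: each had a median of at least 100 FPKM, and the number of cells in which a gene reached FPKM 100 ran from 71 to 139, with a median of 104.5. None of these 94 coding genes was at or above FPKM 100 in every cell. At that mark 12 rows (0.0415%) passed in at least 95% of cells, and the named coding genes among them were Cst3 (139 cells), Tmsb4x (139) and Fth1 (135). Rn7s1 and Rn7s2, copies of the RNA of the signal recognition particle, and gene models that overlap them were at or above it in all 140 cells.

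By role, 27 of the 94 encoded ribosomal proteins. Of the 38 listed genes of the cytosolic ribosome, 21 were in at least 95% of cells, with a list median of 7.02 on the log2 scale. Of 15 genes for cathepsins, legumain and cystatins 8 were, with a median of 6.41, and the remaining 7 included Cstb (cystatin B, 113 cells). Of 27 genes raised in disease-associated microglia 11 were, namely the lysosomal genes Ctsd, Ctsb, Ctsz, Cd68 and Lyz2, the ferritins Ftl1 and Fth1, and Tyrobp, B2m, Cd9 and Cd52. Of 24 genes of the homeostatic programme 7 were, among them Tyrobp, Lgmn, Csf1r, Aif1, Cx3cr1 and the matrix protein Sparc (135 cells). Of 30 genes of the actin cytoskeleton 7 were, with Actb at a median of 1149 FPKM, profilin Pfn1 at 586 and cofilin Cfl1 at 549. For comparison, 0.598% of protein-coding genes that reached FPKM 1 in any cell were in at least 95% of cells. The rows detected in at least 10% of cells had a median mean of 0.98 on the log2 scale.

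Of the listed receptors, Fcgr3, an activating Fc receptor for IgG, was in all 140 cells at a median of 585 FPKM, and Ly86, the partner of the Toll-like receptor homologue Cd180, was in 137 at 481. Unc93b1, which carries nucleic acid-sensing Toll-like receptors to endosomes, was in 132 cells. The Toll-like receptors that sense nucleic acids are not reported here. Of the others, Tlr2, for bacterial lipoproteins, was in 75 cells, and Tlr5, for flagellin, in none. Trem2, the lipid receptor that signals through Tyrobp, was in 109 cells at a median of 122, while Tyrobp was in all. For this pair the adaptor was found in more cells than the receptor. Fcgr3 and its adaptor Fcer1g were both in all 140 cells, but the Fc receptors Fcgr1 and Fcgr4 were in 108 and 63.

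All 18 lineage transcription factors were in 10% to 95% of cells, and none in at least 95%, a mark that 0.523% of all rows reached. Spi1 (PU.1), which specifies myeloid cells, was in 105 cells at 0, 48.6 and 3711 FPKM. Irf8 was in 96, Irf5 in 85 and Sall1, which holds microglial identity, in 33. The list's median was 1.25 on the log2 scale, against 0.98 for rows detected in at least 10% of cells and 0.11 for all rows detected in any cell.

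Soluble signals were divided in the same way. Of 15 chemokines, Ccl12 and Ccl4 were in at least 95% of cells and Ccl6 and Ccl3 in 131 and 132. Of 19 cytokines none was. Il1a and Tnf, inflammatory cytokines that act on astrocytes and neurons, were in 102 and 91 cells with medians of 3.13 and 1.96 FPKM and highest values of 5153 and 2112. Il18 was in 37 cells, Osm in 29 and Il1b in 25. Il10, Csf2 and Lif were found in no cell, nor was Cx3cl1, the neuronal ligand of Cx3cr1 (each 0 of 140 cells, which allows up to 2.14%). Of 24 cell cycle genes, Tuba1b was in 137 cells and Mki67, a marker of dividing cells, in 10 with no value at or above FPKM 100.

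The most variable genes were ranked by excess SD, which is a gene's SD of log2(FPKM + 1) over cells less the median SD of the 100 genes nearest in mean. This asks which genes were more uneven than genes of like level. Of 8242 rows detected in at least 10% of cells, 111 (1.35%) had an excess SD of 0.5 or more. Of the first 25 rows with a gene name, 7 were microRNA models that lie in exons of longer genes, such as Mir5107 in Cd74, whose reads cannot be told from those of the host. Snord118, a small nucleolar RNA, was another. The values below are therefore for protein-coding genes.

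Chemokines led. Ccl4 (MIP-1 beta; 11:83662584-83664683), a chemokine that draws monocytes and T cells, had the highest excess SD, 1.14, with FPKM of 0, 107 and 27927 in the lowest, median and highest cell. It was under 10 FPKM in 27 cells, from 10 to 100 in 42 and at or above 100 in 71. Its neighbour on chromosome 11, Ccl3 (MIP-1 alpha), had 0.87, with 51, 27 and 62 cells in the same classes and a highest value of 12328. Ccl6 had 0.67. The 14 cells highest in Ccl4 held 55.9% of its summed FPKM, so the total came largely from 1 cell in 10. By group the median of Ccl4 was 179 (PBS), 168 (low dose) and 34.1 (high dose), and each group held cells from 0 to above 9000. Without plate 2 the excess SD of Ccl3 was 0.57. In the cells with at least 2000 detected genes that of Ccl4 was 1.73 and that of Ccl3 1.52.

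Interferon-inducible membrane proteins came next. Ifi27l2a had an excess SD of 0.93 and Ifitm3, which blocks viral entry, 0.85. Ifitm3 was under 10 FPKM in 58 cells, between 10 and 100 in 20 and at or above 100 in 62, with a highest value of 20104. For Ifi27l2a these counts were 72, 16 and 52. Both genes thus had fewer cells in the middle than at either end. The same held for immediate early genes, which stimuli switch on within minutes. Fos (0.81) had 57, 16 and 67 cells and Junb (0.70) had 54, 17 and 69. Ier2 (0.78) had 74, 12 and 54, and the phosphatase gene Dusp1 (0.71) had 74, 16 and 50. The shape was not particular to these genes, which were picked for their spread. The proteasome subunit gene Psmb2 had 67, 11 and 62 cells, and the lactate dehydrogenase gene Ldhb had 72, 11 and 57. Among the most variable coding genes listed, only Ccl4, Lyz2 and Apoe lacked it. Without plate 2 the excess SD of Fos was 0.53, and in the cells with at least 2000 detected genes it was 1.42, with Ifitm3 at 1.40.

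Lyz2, lysozyme, and Apoe, apolipoprotein E, were uneven in another way. Lyz2 (0.80) had 0.303, 246 and 67818 FPKM, and the 14 highest cells held 80.2% of the sum. Its near-identical neighbour Lyz1 followed it with a correlation over cells of 0.94 (adjusted as described further on), so reads of the pair may be split. Apoe (0.75) had 0, 13.9 and 28840, and the 14 highest cells held 91.9% of the sum. It was under 10 FPKM in 59 cells, from 10 to 100 in 44 and at or above 100 in 37. Lgals1 (galectin 1) and Lst1 were more concentrated still, with 95.7% and 93.1% of the sum in 14 cells. Without the 12 cells that held at least 3 border macrophage markers, the excess SD of Apoe was 0.25 and that of Lyz2 0.52. In those 12 cells Cst3 lay between 136 and 6079.8 FPKM, under the median of all cells.

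Of 34 listed genes of the respiratory chain, 5 had an excess SD of 0.5 or more, and of 23 proteasome genes 3 had, beside 1.35% of rows. Among the 25 most variable coding genes were Ndufa1 (0.80), Ndufa2 (0.64) and Uqcr10 (0.64) of the respiratory chain and the proteasome subunit Psmb2 (0.68). The others included Higd2a (0.63), the lactate dehydrogenase gene Ldhb (0.73), Cstb (0.78), Lamtor5 (0.67) and the mitochondrial cholesterol-binding protein Tspo (0.65). Ndufa1 was under 10 FPKM in 82 cells and at or above 100 in 49, with 9 between. Gpr34, a lysophosphatidylserine receptor of microglia (0.67), was under 10 in 71 cells and at or above 100 in 56. Cd68, a lysosomal membrane protein, was detected in all cells yet had an excess SD of 0.63, with 32 cells under 10 FPKM and 86 at or above 100.

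**Figure D3:**
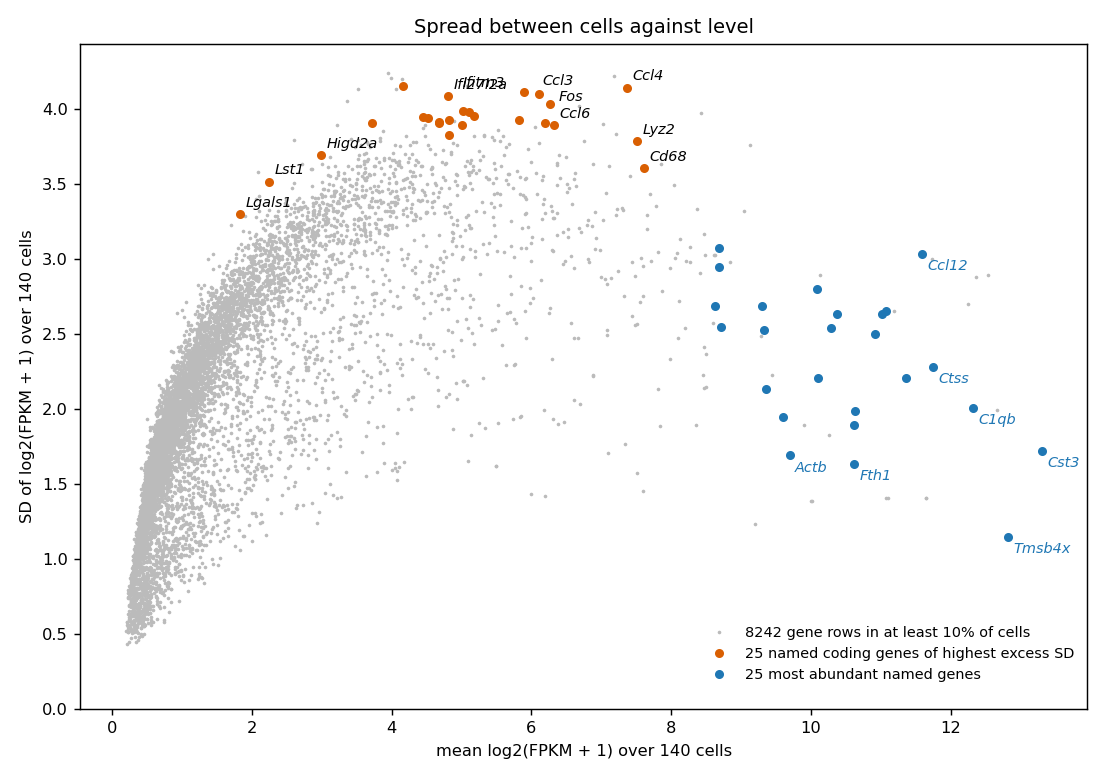
SD over 140 cells of log2(FPKM + 1) against its mean, one point per gene row detected in at least 10% of cells; the 25 most variable protein-coding genes are orange and the 25 most abundant named genes blue. Spread is highest at middle levels, Ccl4 stands above genes of its level, and Cst3 and Tmsb4x combine a high level with a low SD.

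To see which genes rose and fell together from cell to cell, values were adjusted for the mean of each group on each plate and for the number of detected genes, and Spearman correlations were taken over the 140 cells. The cells share plates, groups and amplification, which the adjustment removes only in part. Over 4668 genes detected in at least 20% of cells, the median of 10892778 pairs was 0.05, with 1% of pairs under -0.18 and 1% over 0.31. Correlations of 0.4 or more were found in 18780 pairs (0.172%). The very highest belonged to rows that share reads or sequence: of the 100 highest pairs, 97 overlapped in the genome or included a pseudogene, gene model or noncoding RNA. The first, Gm8264 with Gm8137, reached 1.00, and Rn7s1 with Rn7s2 likewise. Among coding neighbours or copies, Hist1h2ao with Hist1h2ap and Rnaset2a with Rnaset2b stood near 1 (0.998 and 0.994), and Pde6h, a cone gene that overlaps Arhgdib, followed it at 0.97. These pairs say nothing on shared behaviour, and the pairs below do not overlap.

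Immediate early genes formed the tightest of the lists. Their 153 pairs from 18 genes had a median of 0.53, and 124 of them (81.0%) reached 0.4, against 0.172% of all pairs. Egr1, a zinc finger factor, followed Zfp36, which destabilises cytokine mRNAs, at 0.79, although they lie on different chromosomes. Junb followed Zfp36 at 0.78, Atf3 followed Jun at 0.76 and Fos followed Junb at 0.74. By gene, Ier2 had the highest median with the others, 0.63, and Rgs1, a regulator of G protein signalling, the lowest, 0.26. Of 71175 pairs of listed genes on different chromosomes, 24 of the highest 30 were of immediate early genes alone. The list median was 0.41, 0.53 and 0.61 on the 3 plates and 0.51 (PBS), 0.55 (low dose) and 0.51 (high dose) by group.

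**Figure D4:**
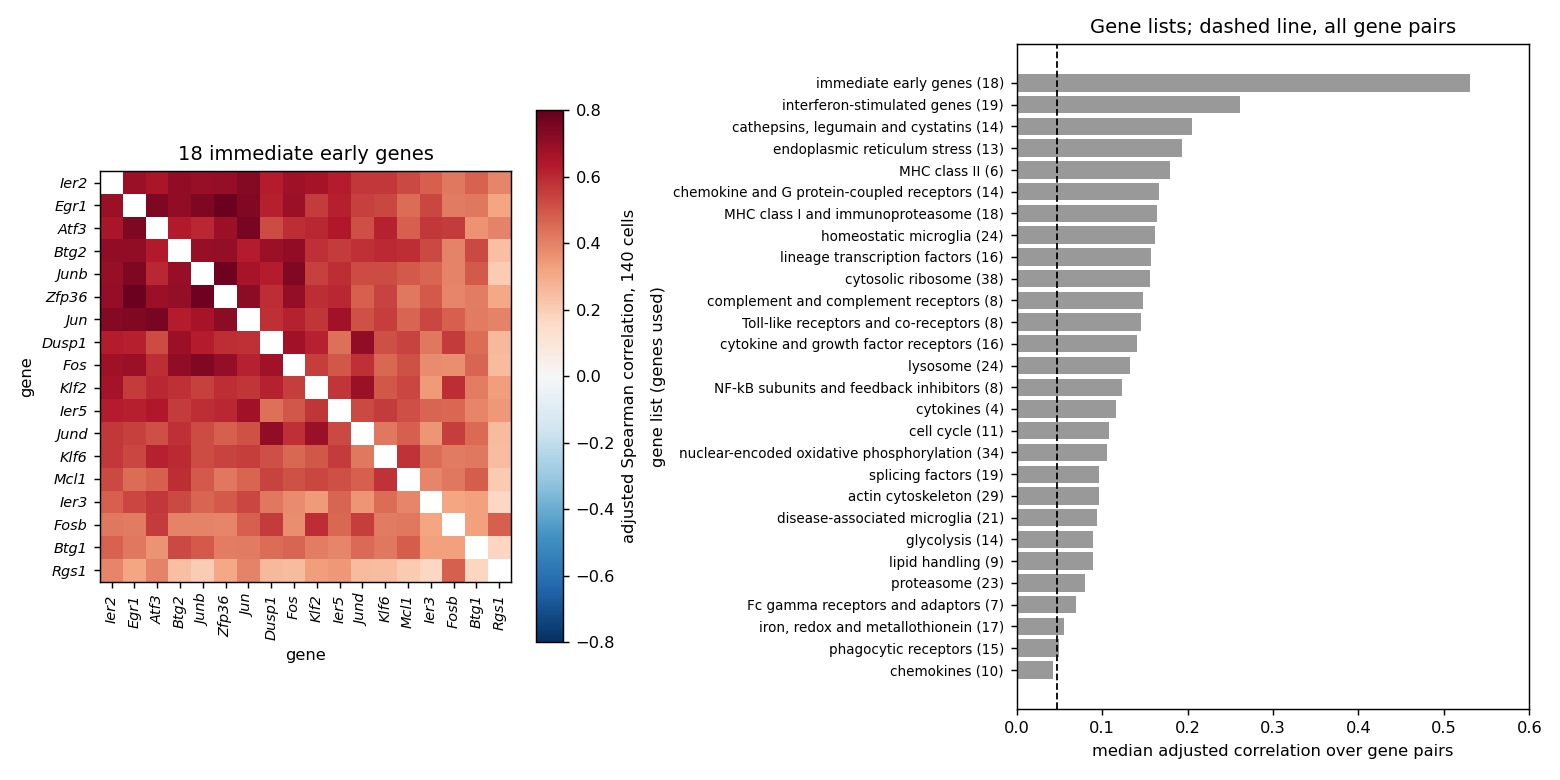
Left, adjusted Spearman correlations over 140 cells between 18 immediate early genes; right, the median correlation over pairs within each gene list, with a dashed line at the median of all gene pairs (0.05). The immediate early genes stand at 0.53, interferon-stimulated genes at 0.26 and the other lists lower.

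Single cells differed widely in how many of these genes they held. Of the 24 listed, a cell had between 0 and 20 at FPKM 10 or more, with a median of 5. In 50 cells there were 0 or 1, in 39 there were 2 to 11, and in 51 there were 12 or more. Cells with 12 or more were found in each group (22 PBS, 19 low-dose and 10 high-dose cells). Those with 2 to 11 numbered 12, 10 and 17, and those with 0 or 1 numbered 12, 18 and 20. In the high-dose group the middle class was thus larger than the highest. The number moved with the count of detected genes (Spearman 0.71) more than with reads (0.23) or with the share of the chromosome 1 mitochondrial copy (-0.07). After adjustment for detected genes, group and plate together the excess SD of Fos was -0.01 and that of Ccl3 0.45. The part of detection in the spread of the list was not tested. Without the adjustment the list's median correlation was 0.62 and that of all pairs 0.13.

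**Figure D5:**
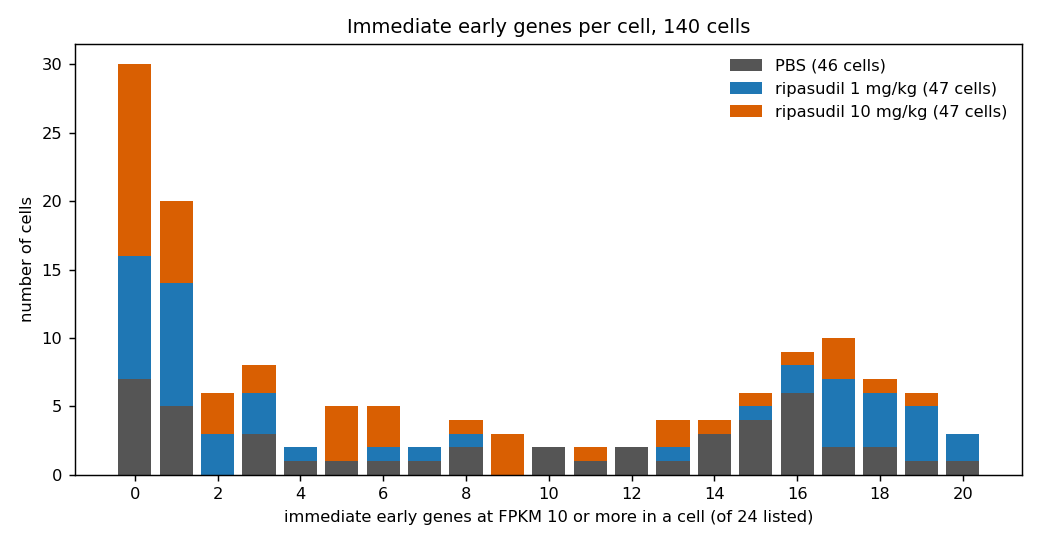
Number of cells (vertical axis) by the number of the 24 immediate early genes at FPKM 10 or more (horizontal axis), stacked by group. Over all groups, 50 cells lie at 0 or 1, 39 at 2 to 11 and 51 at 12 or more.

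The promoters of co-varying immediate early genes are shown because members moved together while lying on different chromosomes. RefSeq windows of 250 bases before the start (build GRCm38.p6) are printed 5′ to 3′ on the gene's strand, with the letters TGACG, the core of the cAMP response element bound by CREB and ATF factors, in capitals. The genes shown are those of highest correlation with the list among the members with a usable window that held the letters and no annotated exon. Windows were compared for 15 of the 18 members, and those of Ier2, Egr1 and Rgs1 were not used here. Those of Atf3 and Zfp36, higher than some genes shown, held annotated exons.

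Btg2: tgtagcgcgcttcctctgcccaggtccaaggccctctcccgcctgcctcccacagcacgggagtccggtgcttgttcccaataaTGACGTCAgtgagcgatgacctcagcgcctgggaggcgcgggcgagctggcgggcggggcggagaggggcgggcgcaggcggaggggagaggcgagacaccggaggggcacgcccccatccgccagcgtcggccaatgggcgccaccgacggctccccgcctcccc
Junb: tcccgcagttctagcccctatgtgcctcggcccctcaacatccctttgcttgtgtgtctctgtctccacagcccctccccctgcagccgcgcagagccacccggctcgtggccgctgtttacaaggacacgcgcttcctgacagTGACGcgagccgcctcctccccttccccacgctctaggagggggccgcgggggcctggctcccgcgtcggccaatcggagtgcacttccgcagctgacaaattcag
Fos: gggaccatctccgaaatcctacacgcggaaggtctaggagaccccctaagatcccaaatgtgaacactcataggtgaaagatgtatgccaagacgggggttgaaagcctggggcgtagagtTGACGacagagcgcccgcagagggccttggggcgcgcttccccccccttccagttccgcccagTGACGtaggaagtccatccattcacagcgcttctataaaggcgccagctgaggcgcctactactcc

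Btg2, an antiproliferative gene (1:134079156-134079405, minus strand), held TGACG on both strands within the palindrome TGACGTCA, 166 and 163 bases before its start. Junb (8:84978749-84978998, minus strand) held it 106 bases before, and Fos (12:85473640-85473889, plus strand) 129 and 66 bases before. On either strand TGACG was in 8 of 15 immediate early windows and in 17.8% of all 32851 RefSeq windows of this length. The full TGACGTCA, which overlaps it, was in 2 of 15 against 1.55%. TGANTCA, the AP-1 element, was in 0 of 15 against 6.75%, and the CArG box of serum response factor in 1 of 15 against 1.47%. The windows of Jun and Ier5 held no TGACG. A match is a description of letters and no evidence of binding in these cells.

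Genes outside the immediate early list that followed its mean were picked after their values were seen. Nfkbiz, an inducible cofactor of NF-kB, was nearest at 0.82, then Socs3, a feedback inhibitor of cytokine signalling, at 0.74. Nfkbia, which retains NF-kB in the cytoplasm, stood at 0.70 and Ppp1r15a, which reverses the integrated stress response, at 0.69. Il1a was at 0.62 and the surface protein Cd83 at 0.58. At the low end, the ribosomal protein gene Rpl41 was at -0.29. Ccl4 followed Ccl3 at 0.64 and Atf3 at 0.55, and Tnf followed Il1a at 0.55. Receptors for cytokines and growth factors moved with immediate early genes as a list (0.68), NF-kB genes at 0.66, the ribosome at -0.16. The same receptors stood nearly as high with lineage transcription factors (0.67), so the link was not particular to immediate early genes.

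Interferon-stimulated genes came next, with a median of 0.26 over 171 pairs of 19 genes. Of these pairs 37 (21.6%) reached 0.4, against 0.172% of all pairs. Ifit2, which binds viral RNA, followed Oasl2, of the oligoadenylate synthetase family, at 0.69. Most members were off in most cells: Ifit3 was in 46 cells and at FPKM 100 in 12, Irf7 in 44 and 19, and Oas1a in 48 and 22. Outside the list, Ifi211 was nearest (0.68), then Oas1g (0.66; it is near-identical to Oas1a), the immunity GTPase Irgm1 (0.63) and the peptide transporter Tap1 (0.57). The abundant and variable Ifitm3 and Ifi27l2a were looser members, at medians of 0.26 and 0.14 with the other genes of the list. The median was 0.18 (PBS), 0.31 (low dose) and 0.30 (high dose) within groups and 0.27, 0.29 and 0.21 on the plates. The mean of the list stood at 0.25 with that of the immediate early genes and at 0.38 with that of MHC class I and immunoproteasome genes.

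The windows of a pair of members are shown for this list, with GAAA, any 2 bases and GAAA again on either strand, the core of the interferon-stimulated response element, in capitals.

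Oas1a: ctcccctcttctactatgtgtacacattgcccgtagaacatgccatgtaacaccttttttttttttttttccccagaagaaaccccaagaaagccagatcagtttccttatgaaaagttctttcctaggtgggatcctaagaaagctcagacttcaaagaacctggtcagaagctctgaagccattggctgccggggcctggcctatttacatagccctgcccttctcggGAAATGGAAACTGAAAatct
Ifit3: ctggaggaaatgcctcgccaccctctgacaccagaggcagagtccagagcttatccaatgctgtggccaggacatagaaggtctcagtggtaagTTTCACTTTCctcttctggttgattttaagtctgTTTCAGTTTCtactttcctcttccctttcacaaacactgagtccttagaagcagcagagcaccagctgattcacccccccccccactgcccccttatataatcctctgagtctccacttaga

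Oas1a (5:120907526-120907775, minus strand) held overlapping matches 20 and 14 bases before its start, and Ifit3 (19:34583279-34583528, plus strand) held matches on the opposite strand 156 and 122 bases before. The motif was in 6 of 14 windows of the list and in 2.98% of all windows. The windows of Ifit2, Oasl2 and Sp100 held none.

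Lysosomal and complement genes moved together more weakly, with list medians of 0.13 and 0.15, and some of them were present in all cells. Lists of endoplasmic reticulum stress (0.19), MHC class II (0.18), MHC class I and immunoproteasome (0.16) and ribosome genes (0.16) stood higher. The median over 91 pairs of the cathepsin, legumain and cystatin list was 0.20. Cst3 followed Ctss at 0.55, and its next neighbours were Sparc (0.47) and C1qb (0.44). The lysosomal progranulin Grn (0.59), C1qc (0.58) and the tetraspanin Cd9 (0.52) were close to the mean of the list. The chains of C1q followed each other at 0.54 to 0.59, but C1qa stood at 0.29 with C1qb without the PBS group. Fth1 followed Ftl1 at 0.51. Tyrobp and Fcer1g, both adaptors, stood at 0.37. Over means of lists, cathepsins went with other lysosomal genes (0.74). Complement stood at 0.66 with homeostatic, cathepsin and lysosomal genes alike. Other pairs of lists stood as high, such as chemokine and G protein-coupled receptors with lineage transcription factors (0.68). Values for means of lists cannot be set beside those for single gene pairs.

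Homeostatic genes had a median of 0.16 over 276 pairs, of which 20 (7.25%) reached 0.4, against 0.172% of all pairs. Tmem119, at a median of 0.30 with the others, followed Gpr34 (0.51) and P2ry12 (0.41). Csf1r followed Olfml3 (0.52) and Selplg (0.51), and stood at -0.03 with Spi1, the factor that binds its promoter. Tyrobp, Aif1, Crybb1 and Fcrls were nearly unrelated to the rest, at medians of 0.02, 0.05, 0.04 and -0.01. Apoe ran against this list, at -0.35 with Tmem119 (-0.23 without the PBS group) and -0.28 with Olfml3. It followed Pf4 (0.53), the scavenger receptor Msr1 (0.46) and Ms4a4a (0.40). Cd74 followed H2-Ab1, a chain of MHC class II, at 0.52. Actin, glycolysis, proteasome, splicing and respiratory chain lists had medians of 0.08 to 0.11, closer to that of all pairs. The ribosome list, at 0.16, stood level with the homeostatic list.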

How the data were processed

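The samples were single sorted cells, 48 per group, with the cDNA of each amplified in its own tube and tagmented with Nextera XT, per the labels' protocols. The authors deposited FPKM per gene and cell. Their processing notes name Trim Galore 0.4.4, cutadapt 1.16, Trimmomatic 0.36, STAR 2.7.2b and featureCounts 1.6.1 with GRCm38.p6 (mm10). Use of strand is not given in the sources used here. FPKM times gene length summed to a constant per cell, so values are shares of assigned reads. A median of 53.1% of values above 0 came out as whole reads within 0.01, so no count model was used. Transcripts encoded by mitochondrial DNA itself were not used here.

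Levels are means of log2(FPKM + 1) over kept cells, with a pseudocount of 1. Named genes were the 5 markers, the 25 most abundant and the 25 most variable named genes, and for each of 29 lists the 4 members of highest mean and the 2 of highest excess SD. Some genes that the rule names are not reported here. Others were named after their values were seen. The members and lists were chosen with earlier results of these data known. Work was done in Python 3.11.15 with numpy 2.4.6, pandas 2.3.3 and scipy 1.17.1 and tested on simulated data. Gene positions are those of the annotation, and promoter windows come from RefSeq (GRCm38.p6), taking the entry nearest the gene's 5′ end.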

Additional observations from a re-analysis of the deposited data

How the results depend on the processing

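The count of rows in nearly all cells depended on the marks used: against 151, it was 383 at any FPKM above 0, 46 at FPKM 10, 12 at FPKM 100, 240 at 90% of cells, 59 at 100% of cells and 233 in the cells with at least 2000 detected genes. The share of cells with at least 3 of 5 markers was 100%, 74.3% and 60% at FPKM above 0, 10 and 100. The 25 abundant genes were shared at 20 to 25 in 17 alternatives, with Cst3 first in each. Of the 25 most variable rows, 16 were shared without the low-dose group, 13 with a pseudocount of 0.1 and 13 on residuals after group, plate and detected genes, where the excess SD of Fos was -0.0052. The immediate early median was 0.66 without adjustment for detected genes and 0.63 for genes in at least 50% of cells, and 0.49 to 0.66 over 16 alternatives. The C1qa and C1qb correlation fell to 0.29 without the PBS group. Cells with Y-linked transcripts numbered 89 at FPKM above 0 against 39. The marks at FPKM 100 and above 0 for Y-linked genes, and the sets without low-Csf1r or border macrophage marker cells, were added after seeing the data. Depth limits low genes: in a cell with 30204 reads, an undetected gene may have been missed. A single read in so shallow a cell can also pass FPKM 1 or 10, and this cell had 3444 detected genes. The marks thus do not ask for the same number of reads in each cell. No paired analysis was possible because the results come from no test; each plate held all groups, and correlations were adjusted for group and plate.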

Other observations

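Transcripts of sex chromosomes gave a picture of the animals behind the pool, which the labels do not describe. Xist, the RNA that coats the inactive X chromosome, was at FPKM 1 in 0 of 140 cells, which allows up to 2.14%, and its highest value was 0.078. At least 1 of the Y-linked genes Ddx3y, Eif2s3y, Kdm5d and Uty was detected in 39 cells, 18 in the PBS group, 10 in the low-dose group and 11 in the high-dose group. Eif2s3y, a translation factor subunit, was in 24 cells and Ddx3y, an RNA helicase, in 23.

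The 4 cells left out by the rule had 876 to 939 detected genes and 105518 to 2604449 reads. Cst3 stood between 6238 and 46195 FPKM in them. Csf1r was at 675 and 1775 in the PBS cells, 2099 in the low-dose cell and 1.64 in the high-dose cell, and they held 4, 5, 1 and 1 of the 5 markers. They came from plate 3 (PBS) and plate 1 (low and high dose).

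Genes that ran against the lysosomal and homeostatic lists were noted after their values were seen. Dcaf1, a substrate receptor of a ubiquitin ligase, stood at -0.46 with the cathepsin list, -0.43 with the homeostatic list and -0.42 with Csf1r. Oas1d, of the oligoadenylate synthetase family, stood at -0.37, -0.35 and -0.37. Dcaf1 was in 27.9% of cells and overlaps Manf and Rbm15b in the annotation, and Oas1d was in 63.6%. Tmsb4x stood at -0.32 with Csf1r.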
